A study of Mus musculus with 2 samples.

Results

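Distal intergenic peaks that were listed for one retina and had no counterpart in the other are described here, 503 in all of the 4789 peaks of the series. They come from CUT&Tag libraries of retinal nuclei made with a Rac1 antibody; Rac1 is a small GTPase and controls actin remodelling. In this assay an antibody on chromatin carries the Tn5 transposase, which inserts sequencing adapters nearby. The COH retina was that of wild-type C57BL/6 mice, 7 weeks old, 1 week into chronic ocular hypertension (COH), a glaucoma model in which raised eye pressure damages the axons of retinal ganglion cells. The control retina came from untreated wild-type C57BL/6 mice of the same age. Each condition is 1 library and 1 list of peaks, 1711 for COH and 3078 for control, and the labels do not say how many animals went into either. Members were selected on the authors' annotation and on the absence of a called peak in the other list, and thus on the measured signal that decides which peaks are called. A peak was a member when the authors had annotated it as Distal Intergenic and it shared no base pair with any peak, of any class, in the other list. This gave 194 peaks in COH only and 309 in control only.

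Distal intergenic sequence lies outside promoters, gene bodies and the stretch just downstream of genes. It is known to hold enhancers and insulators, which can act on genes far away and often skip the nearest one. It also holds many repeats and pseudogenes. The gene named beside each peak below is the one whose transcription start site (TSS) the authors assigned to it, and no measurement here ties the peak to the activity of that gene. Peak sequences are not printed, since no genome of the build used in the lists was used here. The submitters' processing notes name mm9, while 93 of 3175 genes had a start within 100 bp of the GRCm38.p6 position, so positions are given as listed and their build is not settled.

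With 1 library per condition there is no spread between replicates. No difference between the retinas was tested and no p-value is given. Both lists end at the peak caller's threshold, so a site absent from a list is not shown to be unbound. The number of reads is unknown, and a library with a nonspecific antibody was not analysed here.

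Among distal intergenic peaks, 194 of 457 in COH (42.5%, exact 95% interval 37.9 to 47.1) and 309 of 569 in control (54.3%, 50.1 to 58.5) had no counterpart. These intervals cover counting error alone. Over peaks of all classes, 38.2% of the COH list and 65.7% of the control list had none, so the distal share lay above that of its whole list in COH and below it in control. Outside the distal class the shares were 36.6% and 68.3%. Because the membership rule is the absence of a counterpart, these shares describe the choice of members. They also changed with the peaks kept in the control list. With that list held to its 1711 peaks of highest fold, the order turned round, with 235 peaks in COH only (51.4%) and 148 in control only (40.3%). This cut left 367 distal peaks in control beside 457 in COH, so it changed the distal class as well as the list length. The share over all classes was not computed after the cut, so the reversal cannot be set beside that of the whole lists.

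Most members were weak peaks. The pileup, which is the authors' count of stacked fragments at the summit with no stated scaling, had a median of 12 in COH only (range 8 to 79) and 13 in control only (8 to 102). Of the members, 175 of the 194 in COH and 260 of the 309 in control had a pileup under 20. Distal peaks with a counterpart had medians of 25 in COH and 27 in control. The fold enrichment, the authors' ratio over the caller's background, had a median of 5.13 in COH only (quartiles 4.52 and 5.85) and 5.05 in control only (4.48 and 5.87). Distal peaks with a counterpart stood at 7.41 in COH and 8.08 in control. Each set sat below the distal peaks with a counterpart. It lay closer to its whole list, where the median pileup was 16 in COH and 17 in control. The median fold of all peaks was 5.45 in COH and 5.24 in control. Of the members, 36.6% in COH only and 42.4% in control only had a fold above that median of their list. The medians of the 2 sets were close over the whole lists. With the control list held to its 1711 peaks of highest fold they were 5.02 in COH only and 5.96 in control only. That cut takes out the control peaks of lowest fold and leaves the COH list whole. It raises the control-only median by construction, so the 2 medians are not a comparison of strength. The median length was 344 bp in COH only and 352 bp in control only, against 428 and 442 bp for distal peaks with a counterpart.

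A few members were strong. One peak of each set reached the 100 of highest fold in its list, where distal peaks with a counterpart held 57 places in COH and 58 in control. The COH-only peak lay on chromosome Y at 12484639 to 12485083, 65652 bp downstream of the TSS of Gm35108, a predicted gene. Its pileup was 33, its fold 11.8 and its -log10 q 25.2, and it ranked 76 of 1711, with the nearest control peak 6315927 bp away. The control-only peak lay on chromosome 16 at 17040075 to 17040383, 11053 bp upstream of Hic2, which encodes a zinc finger transcriptional repressor. This Hic2 peak (pileup 62, fold 14.3, -log10 q 50.3) ranked 59 of 3078, with the nearest COH peak 89601 bp away.

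**Figure D1:**
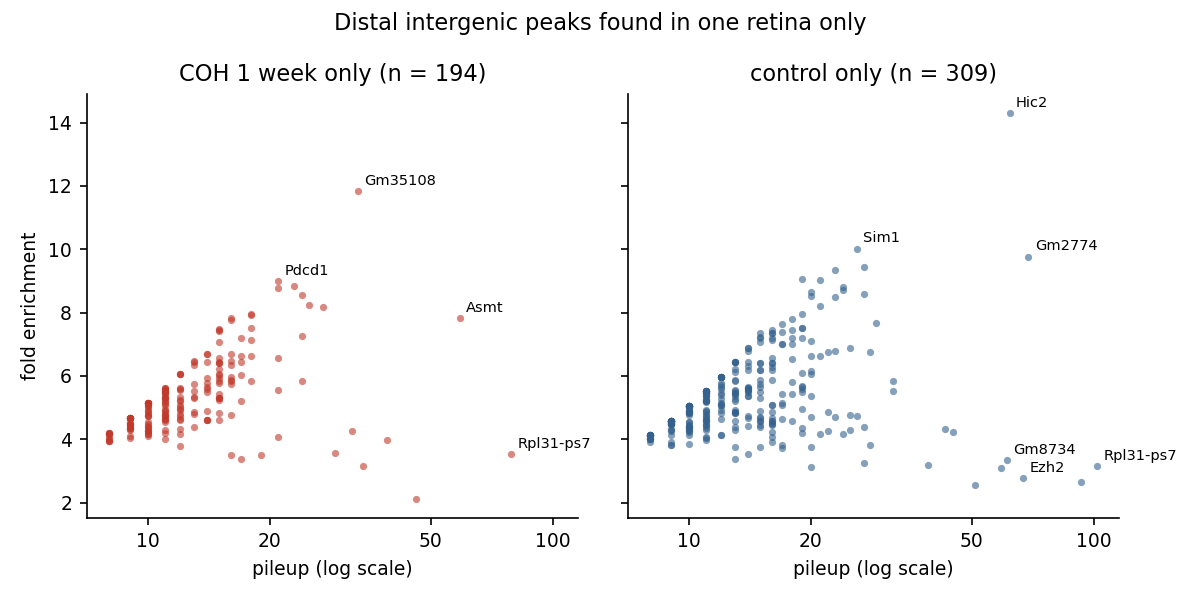
Each point is one distal intergenic peak found in one retina only, COH 1 week on the left (194) and control on the right (309), with its pileup on a log axis and its fold enrichment on a linear axis. Most points lie under a pileup of 20, Gm35108 and Hic2 stand highest, and a group of control peaks with a pileup above 50 lies under a fold of 4.

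In COH only, the next 9 by fold mixed genes of immunity, synaptic trafficking and smell with predicted genes. Pdcd1, which encodes the T-cell inhibitory receptor PD-1, had a peak at 94034182 to 94034524 on chromosome 1, 53904 bp upstream, with pileup 21 and fold 9.0. Nbea, which encodes neurobeachin, a scaffold of neuronal membrane trafficking, had one 30957 bp upstream (pileup 23, fold 8.83). A second Nbea member lay 187831 bp upstream (pileup 10, fold 4.55), and Nbea is also named in the control list, whose nearest peak to the stronger site was 31395 bp away. Both Nbea sites lie upstream of the gene and the closer one is the stronger. The odorant receptor genes Olfr1153 (fold 8.57, 7355 bp upstream) and Olfr596 (fold 8.19, 16890 bp upstream) followed, and Olfr596 had a second member 22186 bp upstream with a fold of 7.19. Neither receptor gene is named in the control list, which names the gene of 18.0% of COH-only peaks. The predicted genes Gm12460, Gm13321, Gm48417 and Gm7181 had folds of 8.79, 8.23, 7.96 and 7.91. Asmt, which encodes the last enzyme of melatonin synthesis, closed the ranks with a fold of 7.82 (pileup 59), inside a cluster of peaks.

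In control only, transcription factor and enzyme genes stood among the 10 of highest fold beside predicted genes. Sim1, a transcription factor of hypothalamic development, had a peak at 50910973 to 50911354 on chromosome 10, 140123 bp downstream of its TSS, with pileup 26 and fold 10.0. The predicted gene Gm2774, a pseudogene by RefSeq class, stood at 23147 bp upstream (pileup 69, fold 9.77). Both sites had no COH peak within 100 kb; the distances were 441888 bp for Sim1 and 297450 bp for Gm2774. Cts7, a cathepsin gene known from placenta, had a fold of 9.05 at 39172 bp upstream. Rnf144b, which encodes a ubiquitin ligase, had a fold of 9.02 at 405085 bp downstream. None of these genes is named in the COH list, which names the gene of 15.9% of control-only peaks. The predicted genes Gm18692, Gm9731, Gm7242, Gm47452 and Gm47642 had folds from 9.44 to 8.66.

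Among the few members of high pileup, folds were low at some and high at others, while members with a pileup of 8 had folds of 3.93 to 4.21 in COH only and 3.92 to 4.13 in control only. Of the 309 control-only peaks, 8 had a pileup of at least 50, and 6 of these had a fold of 2.55 to 3.33. The 6 were 3 peaks assigned to Rpl31-ps7, a ribosomal protein pseudogene, with pileups of 59, 93 and 102, a pair assigned to the Polycomb methyltransferase gene Ezh2, with pileups of 51 and 67, and 1 assigned to Gm8734, with a pileup of 61. The Rpl31-ps7 and Ezh2 peaks lay in windows of 100 kb that held at least 5 control peaks, in a single stretch of chromosome 6. There the Ezh2 pair started at 47637020 and 47644848, and the COH-only Rpl31-ps7 peak at 47721127. By fold the Ezh2 pair ranked 3066 and 3072 of 3078. The other 2 of the 8 were Hic2 and Gm2774. In COH only, 2 peaks had a pileup of at least 50, those of Asmt (59) and Rpl31-ps7 (79, fold 3.54), and both lay in such clusters. In all, 2 of 194 COH-only (1.03%) and 6 of 309 control-only peaks (1.94%) were clustered. Over all peaks the shares were 3.10% in COH and 1.92% in control. Among distal peaks with a counterpart, 22 of 263 in COH (8.37%) and 22 of 260 in control (8.46%) were clustered.

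The share without a counterpart was high among weak and low among strong distal peaks, though it did not fall at every step. At a pileup of 8 to 10 it was 93.4% of 61 distal peaks in COH and 95.2% of 83 in control. At 15 to 19 it was 45.9% of 98 in COH and 61.5% of 122 in control. At 30 to 49 it was 8.77% of 57 in COH and 7.58% of 66 in control. At 50 and above it was 3.51% of 57 in COH and 12.3% of 65 in control, higher than in the step before in control. When each list was split by fold into 5 bins of equal size, the lowest COH bin held 48 members among 74 distal peaks (64.9%, 52.9 to 75.6) and the highest held 18 among 161 (11.2%, 6.76 to 17.1). In control the lowest bin held 72 of 93 (77.4%, 67.6 to 85.4) and the highest 46 of 214 (21.5%, 16.2 to 27.6). In both lists bin 2 lay above bin 1, with 69.6% in COH and 81.9% in control. In bin 3 of the COH list, 67.6% (55.5 to 78.2) of distal peaks and 41.0% (35.0 to 47.1) of the others had no counterpart. In control the shares of bin 3 were 73.0% and 73.2%. In the highest control bin the distal share was 21.5% and that of other classes 35.3% (30.6 to 40.2). These values restate the membership rule by strength and were not tested, since the peaks of 1 list are not replicates of a condition.

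**Figure D2:**
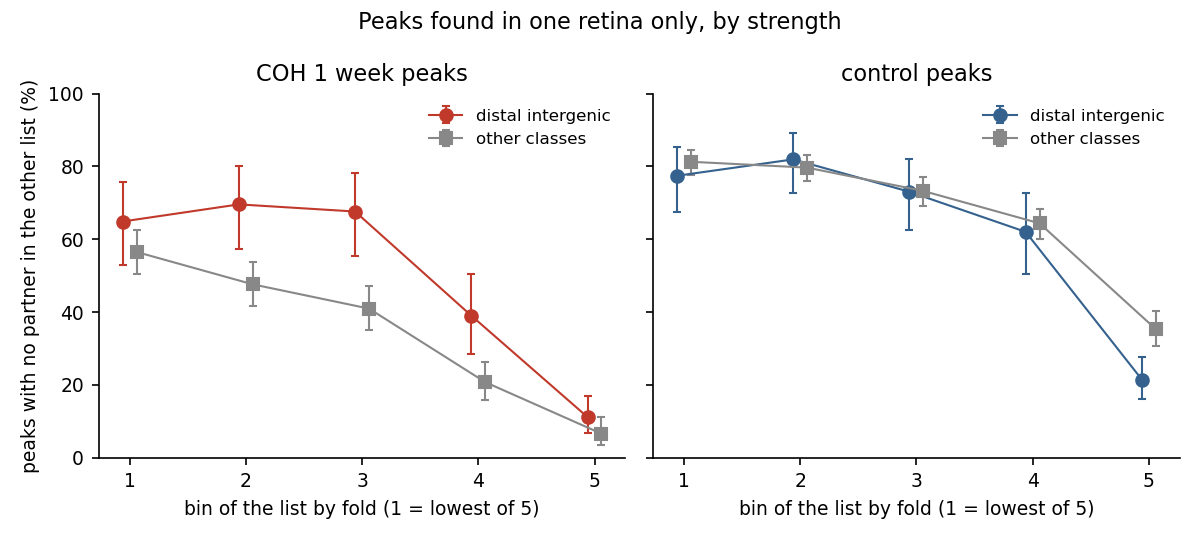
The vertical axis is the share of peaks, in percent, that shared no base pair with the other list, and the horizontal axis is the bin of the list by fold, from weakest to strongest. Coloured circles are distal intergenic peaks, grey squares all other classes, bars are exact 95% intervals, and the COH library is on the left; the distal share drops to 11.2% in COH and 21.5% in control in bin 5.

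The distance to the other list is in part fixed by the rule, since members overlap none of its peaks. The median distance to the nearest peak of the other list was 417922 bp for COH-only and 460642 bp for control-only peaks, and 41 COH-only (21.1%) and 79 control-only peaks (25.6%) lay more than 1 Mb away, against 5.14% and 14.8% of all peaks, overlapping ones included. Fewer than 1000 bp separated 6 COH-only and 3 control-only peaks from the other list. The smallest gap was 281 bp, between the COH-only peak of AY761185 (pileup 16, fold 3.51) and a control promoter peak of that gene (pileup 21, fold 4.0). The next were 343 bp at Asmt and 462 bp at Rpl31-ps7, both in clusters. Gaps of 507 bp at St8sia4, 858 bp at Emid1 and 907 bp at Gm8734 separated a COH-only from a control-only peak. On the other side of the rule, the smallest overlap that kept peaks out was 37 bp at Gm18127 (pileup 10 in COH and 12 in control). The next were 111 bp at Dcbld2, 147 bp at Gm7754, 154 bp at Gm6989 and 168 bp at Cd83.

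Distances from the assigned TSS were alike in the 2 sets. The median was 37734.5 bp in COH only (quartiles 14552 and 119402) and 38580 bp in control only (15728 and 105385). Distal peaks with a counterpart had medians of 38835 bp in COH and 38700.5 bp in control. Upstream positions made up 58.2% (51.0 to 65.3) of COH-only and 55.7% (49.9 to 61.3) of control-only peaks. At least 100 kb separated the TSS from 54 COH-only (27.8%, 21.7 to 34.7) and 82 control-only peaks (26.5%, 21.7 to 31.8). The greatest distance was 716220 bp in COH only and 602345 bp in control only, against 455770 and 455754 bp among the 263 COH and 260 control distal peaks with a counterpart.

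**Figure D3:**
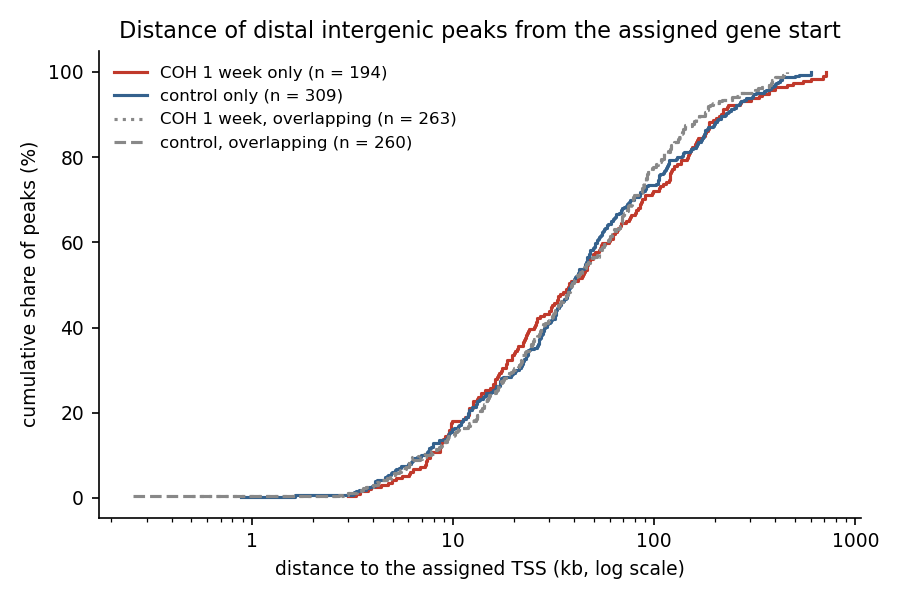
The curves give the cumulative share of distal intergenic peaks, in percent, by distance to the assigned TSS in kb on a log axis. Red is COH 1 week only (194), blue control only (309), and grey lines are the distal peaks that overlap the other list; the curves cross the middle near 38 kb.

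The members closest to a gene start lay at 3015 to 3910 bp in COH only and at 879 to 3306 bp in control only. In COH only they were Gm10180 (3015 bp upstream), the odorant receptor pseudogene Olfr408-ps1 (3293), AY761185 (3438), Gm48416 (3793) and H2-M10.1, a non-classical histocompatibility gene (3910), all upstream. Their folds ran from 3.51 to 5.54. In control only they were Gm48431 (879 bp downstream, fold 6.79), Gm13681 (1643 bp downstream), Mustn1, a musculoskeletal nuclear protein gene (3176 bp downstream), Gm3141 (3198 bp upstream) and the neuronal sodium channel gene Scn2a (3306 bp upstream, pileup 11, fold 4.70). Of 281 ion channel and neurotransmitter receptor genes, 0 had a COH-only peak and 1, Scn2a (0.356%), a control-only peak, near the 0.342% and 0.53% of all protein-coding genes that had one.

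The 5 farthest members lay at 548080 to 716220 bp in COH only and at 433073 to 602345 bp in control only. In COH only the distances were 716220 bp at Gm4854, 713405 bp at Gm47036, 689611 bp at Gm12129, 600310 bp at Gm44879 and 548080 bp at Gm38432, all predicted genes, with pileups of 8 to 12. In control only they were 602345 bp at Gm13469, 600984 bp at Gm7242, 522003 bp at the RNA-binding protein gene Khdrbs3, 498641 bp at Csmd1, a complement regulator gene active in brain, and 433073 bp at Med13l, a Mediator kinase module subunit gene. Gm7242 had the highest fold of these, 8.81, and the other 4 lay between 3.76 and 5.39. The longest members were 675 bp at the Wnt receptor gene Fzd7, 616 bp at Asxl3, which encodes a partner of the deubiquitinase BAP1, and 609 bp at Olfr596 in COH only. In control only they were 830 bp at Gm20954, 819 bp at Gm9334 and 784 bp at Elovl5, a fatty acid elongase gene, with a fold of 6.75.

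The kinds of gene assigned to the members were alike in the 2 sets. Through RefSeq names, protein-coding genes were assigned to 77 of the 194 COH-only peaks (39.7%, 32.8 to 46.9) and 127 of the 309 control-only peaks (41.1%, 35.6 to 46.8). Pseudogenes were assigned to 69 (35.6%, 28.8 to 42.7) and 104 (33.7%, 28.4 to 39.2). Long non-coding RNA genes had 3 and 4, and 45 and 74 peaks had a gene name the table does not hold. Over whole lists, pseudogenes were assigned to 15.8% of COH and 10.9% of control peaks, and protein-coding genes to 72.8% and 80.8%. Distal peaks with a counterpart had shares like those of the members, with pseudogenes at 40.3% in COH and 40.4% in control.

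**Figure D4:**
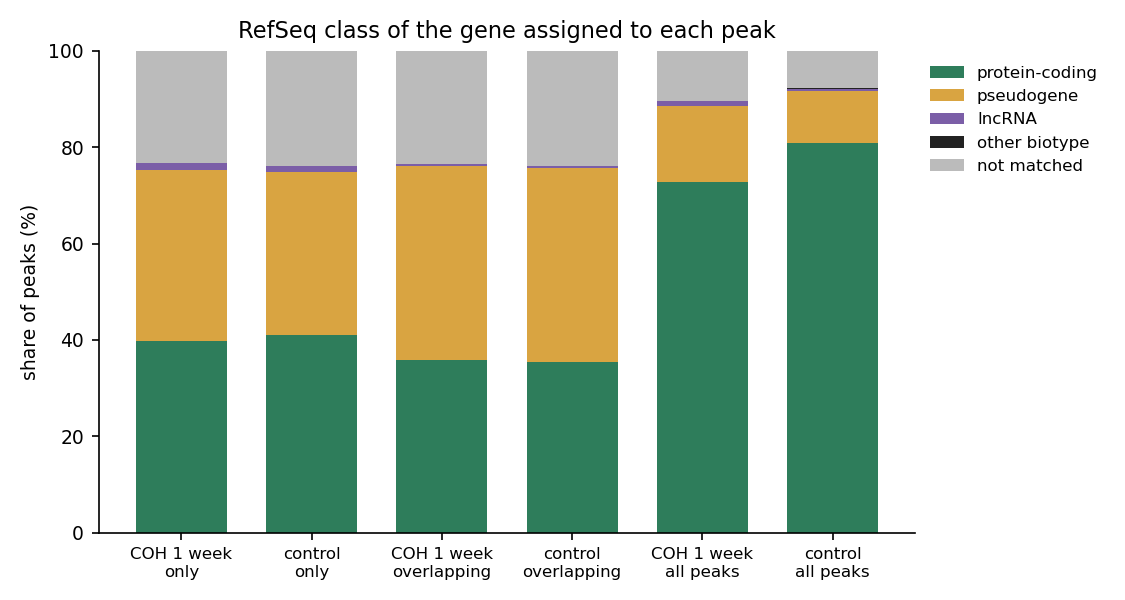
Bars show the share of peaks, in percent, by the RefSeq class of the assigned gene, for members in COH 1 week only and control only, for distal peaks that overlap the other list, and for all peaks. Pseudogenes take 35.6% and 33.7% of the member bars, against 15.8% and 10.9% of all peaks.

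Few members shared a gene. The 194 COH-only peaks were assigned to 190 genes and the 309 control-only peaks to 291. The assigned gene was named in the other list for 35 COH-only (18.0%, 12.9 to 24.2) and 49 control-only peaks (15.9%, 12 to 20.4). Over all peaks these shares were 66.6% of the COH and 38.2% of the control list. The rule itself lowers the shares of members, since a peak with a counterpart has a peak of the other list beside it. A peak within 1000 bp of the TSS of that gene stood in the other list for 7 COH-only (3.61%) and 9 control-only peaks (2.91%). Over all peaks, which include those at a TSS, the shares were 38.0% and 21.2%. Distal peaks with a counterpart also had low shares, 6.08% in COH and 2.69% in control. In control only, Apba2, which encodes a neuronal adaptor that binds the amyloid precursor protein, had 3 members, 32323, 27321 and 7523 bp upstream, with pileups of 25, 27 and 23. The 3 Apba2 peaks lay between 7815 and 12817 bp from a COH peak also assigned to Apba2. In COH only, Nbea, Olfr596, Gm20786 and Gm49043 had 2 members each.

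Both sets held a member for 15 genes, and for each of the 15 a pair lay on the same side of the TSS. Ret, the receptor tyrosine kinase for GDNF-family growth factors, had a COH-only peak 12044 bp upstream (pileup 11, fold 4.64) and a control-only peak 17387 bp upstream (pileup 17, fold 7.65), 5027 bp apart. St8sia4, a polysialyltransferase that modifies the neural adhesion molecule NCAM, had a COH-only peak 229635 bp upstream (pileup 9, fold 4.37). Its control-only peaks lay 228774 bp upstream (pileup 9, fold 4.59) and 9844 bp upstream (pileup 10, fold 5.05). The distant St8sia4 sites of the 2 lists are thus neighbours of equal pileup, 507 bp apart. Emid1, a gene for an extracellular matrix protein, had a COH-only peak 17571 bp upstream (pileup 17, fold 3.36) and a control-only peak 16266 bp upstream (pileup 26, fold 4.75). At Asmt the COH-only peak lay 90220 bp upstream (pileup 59), and control-only peaks lay 249072 bp upstream (19) and 9470 bp downstream (25). At Rpl31-ps7 the COH-only peak (pileup 79) lay 3945 to 4968 bp from the 3 control-only peaks. The other 10 were predicted genes, among them Gm47452, with a fold of 4.29 in COH only and 8.72 in control only at sites 5564 bp apart.

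Chromosomes contributed unevenly. The ratio of COH-only to control-only peaks was 0.628 over all chromosomes. Control-only peaks were more numerous on 14 chromosomes, COH-only peaks on 3 (8, 15 and 17), and 4 had equal numbers (3, 7, X and Y). Chromosome 5 carried 7 COH-only and 25 control-only peaks. These were 63.6% (30.8 to 89.1) of its 11 distal COH peaks and 86.2% (68.3 to 96.1) of its 29 distal control peaks. Over all chromosomes the shares were 42.5% and 54.3%. On chromosome 11, 11 of 14 distal COH peaks (78.6%) and 13 of 16 distal control peaks (81.25%) had no counterpart. Chromosome 9 carried 3 COH-only peaks among 13 distal COH peaks and 12 control-only peaks among 22 distal control peaks. Chromosome 15 carried 11 and 6, out of 22 and 17 distal peaks, and chromosome X 14 in each set, out of 42 and 41. These counts are small, and the chromosomes were singled out after their values were seen.

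**Figure D5:**
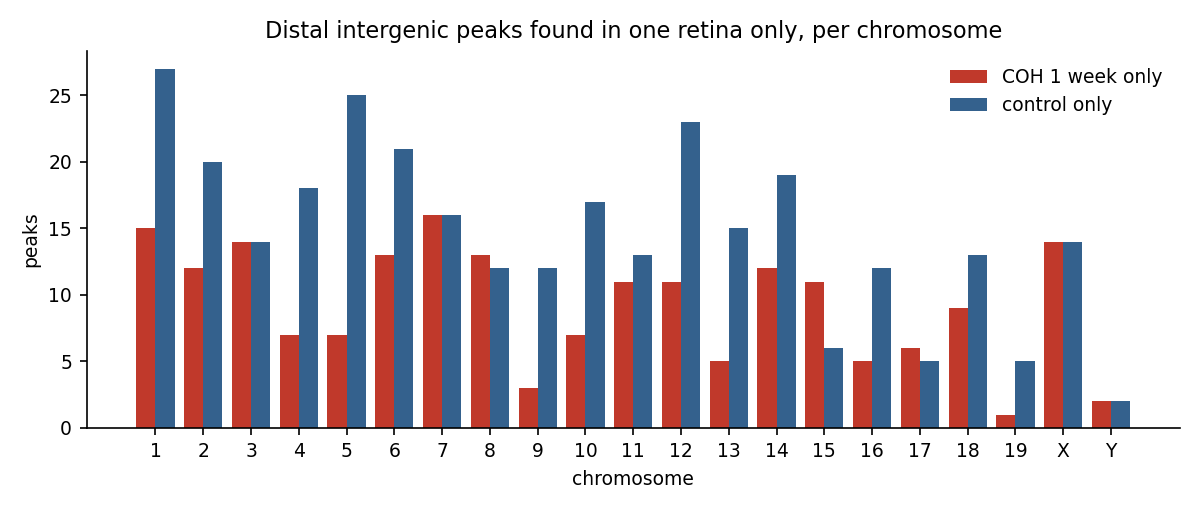
Bars count the distal intergenic peaks found in one retina only on each chromosome, red for COH 1 week only and blue for control only. Control bars are taller on 14 chromosomes, COH bars on chromosomes 8, 15 and 17.

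Gene groups were counted to ask which pathways the assigned genes belong to, with lists of protein-coding genes. As a background, 75 of 21900 protein-coding genes (0.342%) were assigned a COH-only peak and 116 (0.53%) a control-only peak. Counts of 0 to 3 members in most lists make every share imprecise, and no list was tested. Kinesin, dynein and microtubule genes had 0 of 112 in both sets.

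Axon guidance and axon growth genes had single members. Of 77 guidance genes, Unc5c and Rgma (2.60%) had a COH-only peak and Sema3d (1.30%) a control-only peak. Over all protein-coding genes the shares were 0.342% and 0.53%. Unc5c, a netrin receptor gene, had the strongest of these, 86138 bp upstream pileup 18 and fold 7.14, rank 346 of 1711. The Rgma peak, beside a gene for a repulsive cue, lay 178080 bp upstream (pileup 11, fold 5.56), and that of Sema3d, a semaphorin, 103897 bp upstream (pileup 9, fold 4.59). Of 50 axon injury and growth control genes, 1 had a COH-only peak (2%) and 1 a control-only peak (2%). Ntrk2, the receptor for the neurotrophin BDNF, had a COH-only peak 332578 bp downstream (pileup 15, fold 5.30). Klf4, a transcription factor that limits axon growth of retinal ganglion cells, had a control-only peak 118571 bp upstream (pileup 20, fold 6.06). None of Unc5c, Rgma, Sema3d, Ntrk2 and Klf4 is named in the other list. That is usual for members, since the other list names the gene of 18.0% of COH-only and 15.9% of control-only peaks. Of 115 cell adhesion and synapse organiser genes, 0 had a COH-only peak and 2 (1.74%), Csmd1 and Cadm1, had control-only peaks. Both genes are also named in the COH list. The 2 Cadm1 peaks, beside a gene for a synaptic adhesion molecule, lay 106892 and 24159 bp upstream with folds of 4.88 and 3.92.

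Activity-driven genes were represented in both sets. Of 36 circadian and immediate early genes, 3 (8.33%, 1.75 to 22.5) had a COH-only peak and 1 (2.78%, 0.0703 to 14.5) a control-only peak. Over all protein-coding genes the shares were 0.342% and 0.53%. Peaks of any class were assigned to 17 of the 36 genes in COH and 17 in control, and that share was not computed for all protein-coding genes. The share of the list was not tested, and the list was written with earlier results of these data known. The COH-only peaks lay upstream of Fosb, an AP-1 subunit gene (9577 bp, pileup 18, fold 5.85), Hlf, a clock-controlled bZIP factor gene (27007 bp, pileup 15, fold 5.43), and Nr4a1, an immediate early nuclear receptor gene (7654 bp, pileup 15, fold 4.60). The control-only peak lay 17782 bp downstream of Btg2, an antiproliferative early response gene (pileup 22, fold 4.25). None of these 4 genes is named in the other list, as for most members (18.0% of COH-only and 15.9% of control-only peaks have a gene named there).

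Transcription factors of development had 2 of 273 (0.733%) in COH only and 5 (1.83%) in control only, beside 0.342% and 0.53% of all protein-coding genes. Sox9, a factor of Müller glia, had a COH-only peak 159788 bp upstream (pileup 14, fold 5.64), and Sox5 one 44796 bp upstream (pileup 10, fold 4.40). Sox5 is also named in the control list. Control-only peaks belonged to Eya1, Eya2 and Eya4, transcriptional cofactors of eye and sensory organ development, and to Nkx1-1 and Foxj2. The Eya4 peak was 130507 bp upstream with a fold of 5.28, that of Eya1 196579 bp upstream with 4.48 and that of Eya2 6367 bp upstream with 4.29. All 5 control-only peaks had a pileup of 11 to 16. Of 148 listed chromatin regulators, 0 had a COH-only peak and 2 (1.35%) a control-only peak, the clustered Ezh2 peaks and Arid5b (4187 bp upstream, pileup 16, fold 6.55). Ezh2 is not absent from the COH list. COH distal peaks assigned to Ezh2 that overlap a control peak had pileups of 53 to 69. One of them lay 2933 bp from a control-only Ezh2 peak. Asxl3, which has a COH-only peak, is a chromatin regulator that this list leaves out. Zinc finger genes of the Zfp, Zkscan and Zscan families had 2 of 425 (0.471%) in COH only, Zfp239 and Zfp365. Control only held 1 (0.235%), Zfp438, which is also named in the COH list.

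Immune and sensory receptor genes had members in both sets. Of 173 glial reactivity and inflammation genes, Il12a (fold 4.62) and Irf8 (3.80) had COH-only peaks and Il17a (5.52) a control-only peak. The shares were 1.16% and 0.578%, beside 0.342% and 0.53% of all protein-coding genes. Of 1538 odorant, vomeronasal, taste and Mrgpr receptor genes, 7 (0.455%, 0.183 to 0.935) were in each set, near the shares of all protein-coding genes. No receptor gene was in both, and few genes of any kind were, 15 in all beside 190 COH-only and 291 control-only genes. The 4 highest folds were those of Olfr1153 and Olfr596 above, Olfr774 (6.62) and Olfr401 (6.02) in COH only, and Olfr1390 (6.43), Olfr784 (5.29), Vmn2r19 (5.04) and Vmn1r238 (4.32) in control only. Vmn1r238 had 2 control-only members 4090 and 5135 bp from its TSS, with pileups of 43 and 45. Markers of inner retinal neurons (0 of 40) had no member in either set, and among 35 glial, vascular and pigment epithelium markers Sox9 alone had one. Sox9 stands in 2 of the lists.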

How the data were processed

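Per the labels' protocols, CUT&Tag libraries were amplified with 15 PCR cycles. The submitters' processing notes name cutadapt 1.9.1, Bowtie2 and mm9. The caller and its background library were not given in the sources used here. The authors deposited 1 peak list per library, with a pileup (signal, scaling not stated), a fold enrichment (ratio), and -log10 p and -log10 q values, whose headings held a spreadsheet error and were read from their place. The lowest -log10 q was 1.82 in COH and 2.00 in control. The deposited length is end minus start plus 2 for each peak; positions are printed as listed.

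Overlap was 1 bp or more, computed in Python 3.11.15 with pandas 2.3.3. Shares have exact Clopper-Pearson 95% intervals (scipy 1.17.1). They cover counting error only, since each condition has 1 library and the peaks of 1 list are not replicates. PCR copies carry no molecular identifiers. In simulated lists, 1000 of 1000 planted overlaps of 1 bp were recovered and 0 of 300 adjacent peaks were called overlapping. Gene names were matched to RefSeq (GRCm38.p6) by symbol or unique synonym, for 146 of 190 COH-only and 221 of 291 control-only genes.

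Members and gene lists were chosen with earlier results of these data known. Genes named were those of the 10 peaks of highest fold, the 3 of highest pileup, the 5 nearest and 5 farthest from a TSS, the 3 longest, those with most peaks, those in both sets, the closest pairs, and up to 4 per gene list. The results of 2 of the 15 gene lists are not reported here.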

Additional observations from a re-analysis of the deposited data

How the results depend on the processing

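Of 68 values recomputed for 8 results under 9 alternatives, 47 stayed within their interval (for counts, within 1.5 times) and 21 moved. A reciprocal overlap of 50%, a margin of 1000 bp, removal of clustered peaks, restriction to chromosomes 1 to 19 and X, and a distance of at least 10 kb moved none of them. With a -log10 q of at least 5, 72 COH-only (23.2%, median fold 6.36) and 139 control-only peaks (36.7%, median fold 5.97) were left. With both lists above their median fold, the numbers were 81 (29.5%, median fold 6.36) and 146 (43.1%, median fold 6.02). With the control list cut to 1711 peaks, 51.4% of distal COH peaks (235, median fold 5.02) and 40.3% of distal control peaks (148, median fold 5.96) had no counterpart, and the order of the shares was reversed. At least 100 kb from the TSS, 54 COH-only (48.2%) and 82 control-only peaks (58.6%, median fold 5.46) were left. The thresholds on q, fold and distance leave fewer peaks by construction, and the shorter control list offers fewer partners to COH peaks. Cuts on fold also raise, by construction, the median folds of the lists they are applied to. No paired analysis was possible because each condition has 1 library. Depth is unknown, so weak members cannot be told apart from peaks missed in the other list.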

Other observations

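Some genes carried neighbouring members in control only; they were picked after their values were seen. Cyp3a16, a cytochrome P450 gene, had peaks 11635 and 37515 bp upstream of its TSS with pileups of 16 and 15 and folds of 6.41 and 7.06, and the nearest COH peak was 753440 bp from the stronger. Rnf19b, a ubiquitin ligase gene, had peaks 29713 and 28504 bp upstream with pileups of 19 and 16. Genes with names of the predicted Gm series were assigned to 106 COH-only (54.6%, 47.4 to 61.8) and 174 control-only peaks (56.3%, 50.6 to 61.9), against 23.5% of all COH and 16.7% of all control peaks. The predicted gene share of distal peaks with a counterpart was 55.1% in COH and 55.4% in control.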
